A study of Rattus norvegicus with 27 samples.

Results

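Transcripts of 10 genes whose proteins bind AU-rich elements were followed in rat hippocampus after a global loss of blood flow: Elavl1, Elavl2, Elavl3, Elavl4, Zfp36, Zfp36l1, Zfp36l2, Hnrnpd, Khsrp and Tia1. They were found by symbol in the platform annotation, through probe sets assigned to no other gene, and the brightest probe set was used for each gene. All 10 were present among 18166 genes with a probe set of their own, and all were among the 12736 bright enough to be tested. The rats were male Long Evans animals. Controls had a sham operation (non-ischemic control, NIC), and the others had 10 min of complete global brain ischemia at normal temperature, by occlusion of both carotid arteries with hypotension, and then 8 h of reperfusion (8R). Each sample pooled the dissected CA1 or CA3 of 5 rats, so that no value belongs to a single animal. A supernatant freed of mitochondria was divided between total RNA and polysome RNA, which was pelleted through a sucrose pad and is not resolved by ribosome number. The 8 groups of condition, region and RNA fraction held 3 arrays each in NIC, 3 in 8R CA1 polysome RNA and 4 in the other 8R groups, 27 in all.

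AU-rich elements are stretches of A and U in the 3′ untranslated region of many short-lived messenger RNAs, among them those of cytokines, growth factors and immediate early genes. Proteins that bind them compete over the fate of the transcript. Those of the ELAV (Hu) family, Elavl1 (HuR, in nearly all cells) and the neuronal Elavl2, Elavl3 and Elavl4 (HuB, HuC and HuD), are known to stabilise transcripts and to aid their translation. The zinc finger proteins of the tristetraprolin family, encoded by Zfp36, Zfp36l1 and Zfp36l2, recruit deadenylases and so speed decay, and Khsrp (KSRP) does so through the exosome and other decay enzymes. Hnrnpd (AUF1) binds as several isoforms with differing effects on stability, and Tia1 represses translation and nucleates stress granules. In the hippocampus, the pyramidal cells of CA1 are known for delayed death after global ischemia and those of CA3 for surviving it more often, and translation is depressed early in reperfusion.

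Intensities are on a linear scale, with a median over probe sets of 25.6 to 38.1 per array. Differences were tested on log2(intensity + 16) with limma, with p-values adjusted over all tested genes, and a gene was called where the adjusted p was under 0.05. The fold changes given are on that scale, which understates changes of dim transcripts. The median SD of a gene was 0.098 to 0.109 log2 in NIC groups and 0.149 to 0.173 in 8R groups, and the arrays of 8R pool 4 lay apart from the other 8R arrays. The region labels were checked on pyramidal markers: in NIC, 6 of 7 CA1 pyramidal markers were called higher in CA1 polysome RNA and 4 of 7 in CA1 total RNA, but only 2 of 8 CA3 pyramidal markers were called lower in CA1 in each fraction, and 1 was higher in polysome RNA. All 7 oligodendrocyte markers were higher in NIC CA1 than in NIC CA3, in both fractions. In bulk RNA such as this, fewer cells of a type and less RNA per cell cannot be told apart.

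Of the 5 genes that were called in a comparison of 8R with NIC, 3 are shown with the sequence just before their transcription start, to show what these promoters hold. Each is the 250 bases before the start in the RefSeq table on build GRCr8, which gives 1 start per gene, 5′ to 3′ on the strand of the gene. They lie at chr12:7482626-7482875 (minus strand) for Elavl1, chr1:92799109-92799358 (minus strand) for Zfp36 and chr9:1959401-1959650 (minus strand) for Khsrp. For Zfp36l1 and Hnrnpd the start in that table lies 1125 and 1127 bases inside the span of the gene, so their windows are part of the annotated gene and are not shown. Capitals mark matches to any of the motifs searched.
Elavl1: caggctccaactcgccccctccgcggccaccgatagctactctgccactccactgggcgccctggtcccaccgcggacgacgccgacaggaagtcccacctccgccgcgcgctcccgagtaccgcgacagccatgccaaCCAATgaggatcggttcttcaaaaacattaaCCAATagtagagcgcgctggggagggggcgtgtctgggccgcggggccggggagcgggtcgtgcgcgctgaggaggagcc
Zfp36: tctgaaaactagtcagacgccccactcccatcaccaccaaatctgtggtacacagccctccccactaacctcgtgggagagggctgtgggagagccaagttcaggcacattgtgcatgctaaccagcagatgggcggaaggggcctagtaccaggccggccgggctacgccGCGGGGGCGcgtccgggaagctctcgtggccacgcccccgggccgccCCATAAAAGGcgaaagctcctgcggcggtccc
Khsrp: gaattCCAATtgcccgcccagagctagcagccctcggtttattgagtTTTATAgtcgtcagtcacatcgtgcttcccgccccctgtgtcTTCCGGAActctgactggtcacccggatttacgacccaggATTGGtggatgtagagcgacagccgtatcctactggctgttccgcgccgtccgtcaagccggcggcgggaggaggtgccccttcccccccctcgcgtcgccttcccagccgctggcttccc

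Both strands were searched for 7 motifs, and all 10 genes had a window of this kind among the 33469 in the table, 4 of them wholly outside the annotated gene (Elavl1, Zfp36, Zfp36l2 and Khsrp). The CArG box, bound by serum response factor, was found in Zfp36, 32 bases before the start, and at 2 places in Hnrnpd, 180 and 16 bases before it. It occurred in 1.5% of all windows. The EGR site GCGGGGGCG was found in Zfp36, 79 bases before the start, and in 2.45% of all windows. The letters TTCNNGAA, 1 orientation of the heat shock element core, were found in Khsrp and in 7.48% of windows. The other orientation, GAANNTTC (7.23% of windows), and the cyclic AMP response element TGACGTCA (1.59%) were in none of the 10. CCAAT boxes were found in Elavl1, Elavl2, Zfp36l1, Zfp36l2, Khsrp and Tia1 and in 34.0% of windows. The TATA box letters TATAAA were found in Zfp36l1, Hnrnpd and Khsrp and in 12.9%. In Zfp36l1 the TATA and CCAAT matches overlap. The tristetraprolin family gene Zfp36 was the only 1 of the 10 with both a CArG box and an EGR site, the binding letters of factors known for early gene induction. These are matches of letters, and no binding was measured.

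After 8 h of reperfusion 3 of the 10 genes were called higher in CA1 total RNA and the same 3 in CA3 total RNA: Elavl1, Hnrnpd and Khsrp. In polysome RNA the called genes were Zfp36l1 and Khsrp in CA1 and Zfp36 in CA3, all higher. None of the 10 was called lower in any of these 4 comparisons. Across all tested genes, 26.3% were called in CA1 total RNA (20.1% higher, 6.15% lower), 15.5% in CA3 total RNA (14.2% higher, 1.33% lower), 8.31% in CA1 polysome RNA (4.86% higher, 3.45% lower) and 2.65% in CA3 polysome RNA (2.38% higher, 0.275% lower). A count of 3 of 10 in CA1 total RNA is thus close to the share over all genes. The median log2 change of the 10 genes was 0.09 in CA1 total RNA, 0.02 in CA1 polysome RNA, 0.23 in CA3 total RNA and -0.03 in CA3 polysome RNA, beside 0.04, 0.01, 0.08 and 0.04 over all tested genes. All arrays of 1 condition lay above all of the other for 3, 5, 4 and 3 of the 10 genes, in the same order of comparisons, and for 34.6%, 24.2%, 24.6% and 17.7% of all tested genes.

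**Figure D1:**
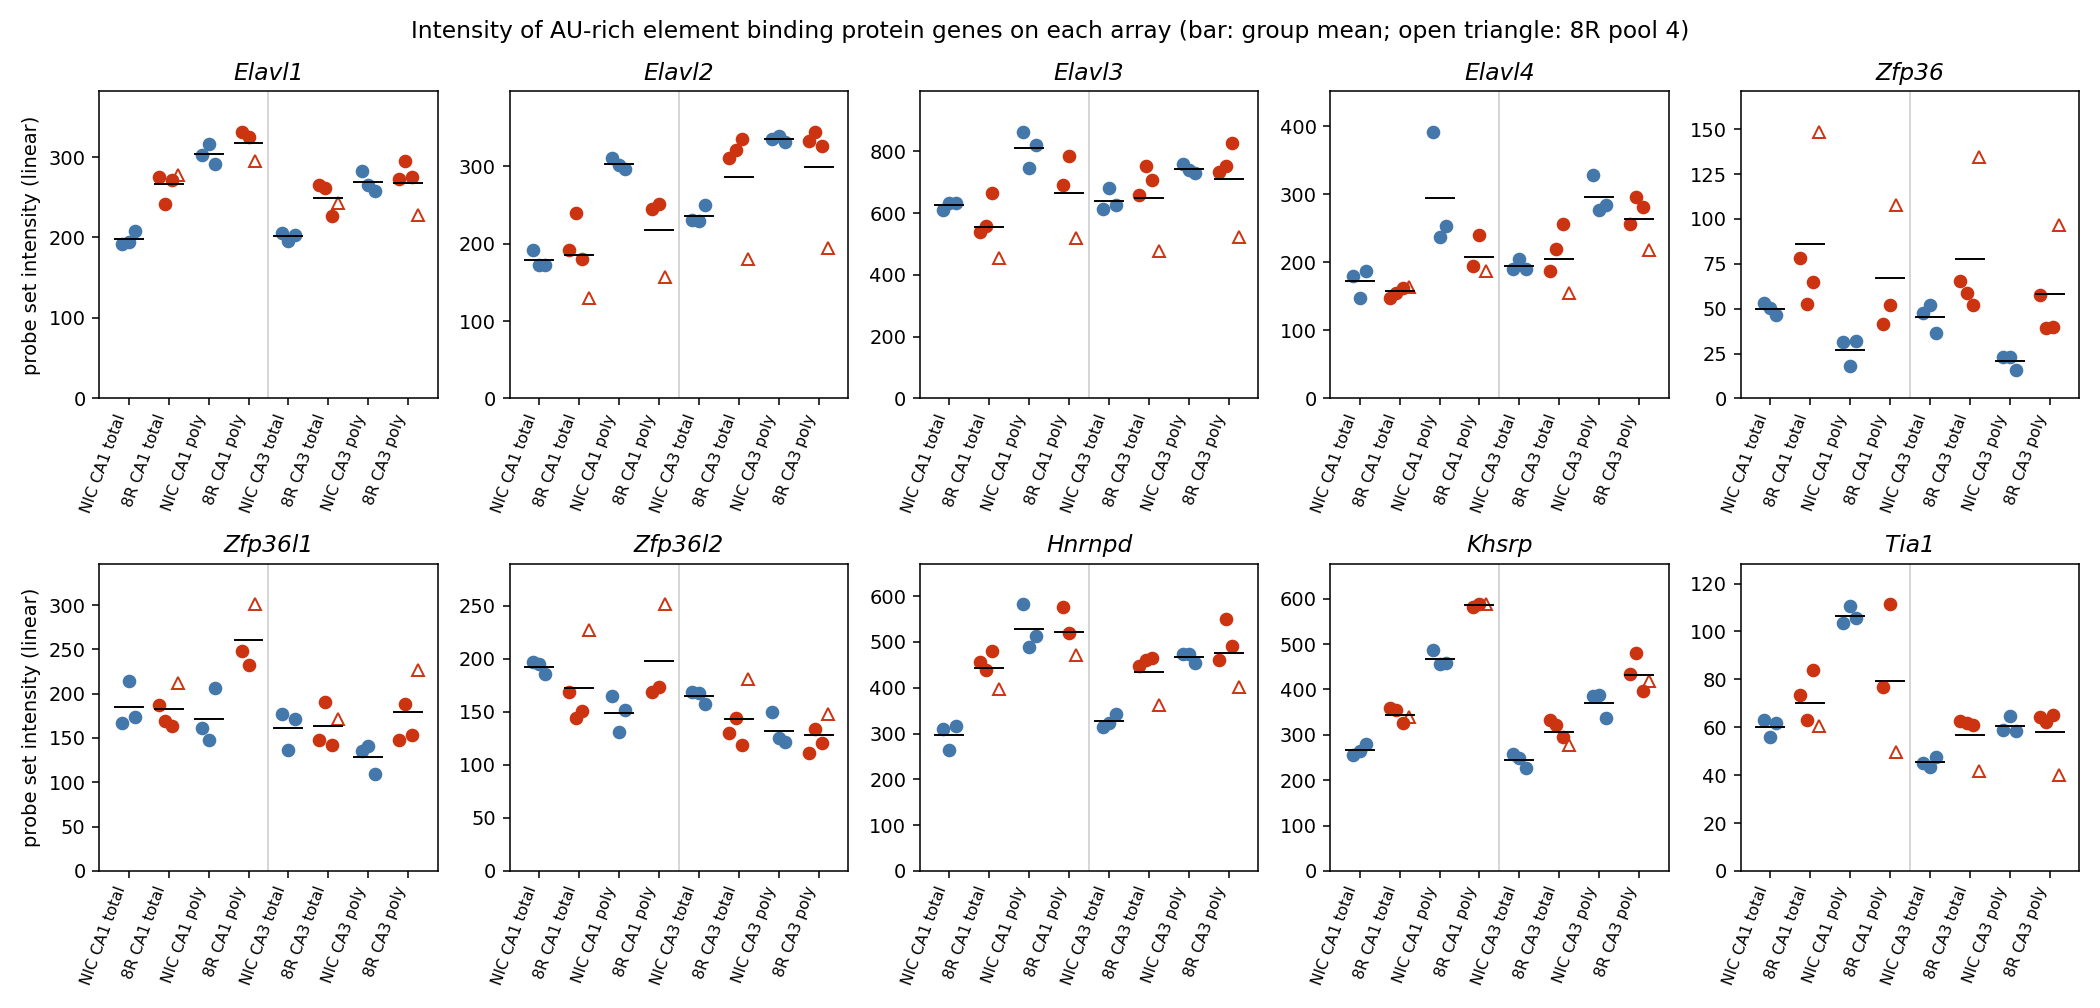
Probe set intensity (linear, y axis) of each of the 10 genes on every array, by group on the x axis, with NIC in blue, 8R in red, 8R pool 4 as open triangles and a bar at each group mean. Zfp36 was higher in pool 4 than in any other array of its group in all 4 8R groups, while Elavl2 and Elavl3 were lower there.

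Elavl1, the Hu protein gene of nearly all cells, gave intensities of 191, 194 and 208 in NIC CA1 total RNA and 275, 241, 271 and 277 in 8R. Every 8R array lay above every NIC array, and the rise was 1.32-fold (log2 difference 0.40 ± 0.09 SE, limma adjusted p = 0.00132). The CA3 total RNA values were 205, 195 and 204 in NIC and 265, 261, 227 and 243 in 8R, again without overlap (0.28 ± 0.09, adjusted p = 0.0294). In polysome RNA Elavl1 was not called. The NIC CA1 polysome arrays were at 303, 316 and 292 and the 8R arrays at 332, 325 and 294 (0.06 ± 0.10, adjusted p = 0.778, 95% interval -0.14 to 0.26). In CA3 polysome RNA they were at 282, 266 and 258 and 273, 295, 275 and 228, and the difference was -0.01 ± 0.09 (adjusted p = 0.966, 95% interval -0.19 to 0.17). The groups overlapped in both polysome comparisons, but the difference between the fractions' changes was not called in CA1 (-0.34, adjusted p = 0.127) or CA3 (-0.29, 0.194). The CA3 total RNA call was lost after quantile normalization (0.14, adjusted p = 0.237), in a fit of those groups alone (adjusted p = 0.0751), without any 1 of the NIC CA3 total replicates 1, 2 and 3 (adjusted p = 0.0627, 0.119 and 0.0694), and without 8R CA3 total replicate 1 or 2 (0.097 and 0.082).

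The neuronal ELAV genes Elavl2, Elavl3 and Elavl4 were not called in any comparison of 8R with NIC. For Elavl2, NIC CA1 polysome RNA was at 311, 302 and 297 and 8R at 244, 251 and 157. The 8R arrays all lay below the NIC arrays, with pool 4 the lowest, and the difference of -0.48 ± 0.20 SE log2 missed the threshold (limma adjusted p = 0.137). In CA3 total RNA the values of Elavl2 were 231, 229 and 249.6 in NIC and 310.3, 321, 335 and 181 in 8R: 3 arrays of 8R were above every NIC array, and the pool 4 array, the last, was below them all (0.23 ± 0.19, adjusted p = 0.451). Without the pool 4 arrays of all 8R groups this difference was called (0.42, adjusted p = 0.000285). Leaving out only 8R CA3 total replicate 4, the pool 4 array of this comparison, did not call it. Elavl2 in CA1 total RNA was at 192, 172 and 173 in NIC and 191, 240.0, 179.6 and 130.0 in 8R, and in CA3 polysome RNA at 336, 339 and 331 and 332, 345, 326 and 194. In CA1 total RNA the NIC values lay inside the wider 8R range, and in CA3 polysome RNA 3 of the 8R arrays were close to the NIC arrays with pool 4 far below.

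Elavl3, the neuronal Hu gene often used as a marker of differentiated neurons, was at 864, 746 and 820.0 in NIC CA1 polysome RNA and 691, 785 and 519 in 8R, and the groups overlapped (-0.30 ± 0.16 SE, limma adjusted p = 0.256). Its values in CA1 total RNA were 611, 631 and 633 and 539, 558, 665 and 453 (-0.18 ± 0.15, adjusted p = 0.375). In CA3 its differences were near 0, 0.00 in total RNA and -0.09 in polysome RNA, with 95% intervals of -0.29 to 0.30 and -0.38 to 0.21. In CA3 total RNA the NIC arrays were at 612, 681 and 625 and the 8R arrays at 658, 752, 708 and 478, and in CA3 polysome RNA at 759, 739.9 and 731 and 732, 751, 828 and 523. In each 8R group the last value, pool 4, was the lowest.

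Elavl4, known for its part in neurite growth and plasticity, was at 392, 237 and 254 in NIC CA1 polysome RNA and 194, 239.7 and 188 in 8R. NIC replicate 1 was far above the rest, and 8R replicate 2 lay just above NIC replicate 2, so that the groups overlapped. The difference was -0.45 ± 0.15 SE log2 (limma adjusted p = 0.0676), and it was called lower after quantile normalization (-0.42, adjusted p = 0.038) and with array weights (-0.40, 0.0363). It was also called without NIC CA1 polysome replicate 2 (-0.58, 0.0432) or 8R CA1 polysome replicate 2 (-0.55, 0.0274). In CA1 total RNA the values were 181, 148 and 188 in NIC and 148, 155, 163 and 163 in 8R. In CA3 they were 191, 205 and 189.7 and 188, 219.8, 256 and 154 in total RNA, and 328, 278 and 285 and 257, 296, 282 and 218 in polysome RNA. These groups overlapped, with differences of -0.11, 0.04 and -0.17. Beside the neuronal ELAV genes, pan-neuronal markers were called lower in CA1 polysome RNA for 5 of 9 tested genes and in CA1 total RNA for 4 of 9, with median log2 changes of -0.24 and -0.14. Their summed intensity was 15313 to 16122 in NIC CA1 polysome RNA and 12753 to 13955 in 8R, without overlap, and 11812 to 12460 and 10103 to 11996 in CA1 total RNA, with overlap. In CA3 total RNA 1 was called higher and 1 lower (median 0.02), with sums of 12606 to 13522 in NIC and 11919 to 14119 in 8R. None of the 9 was called in CA3 polysome RNA, where the sums were 14424 to 14997 and 13555 to 15532. None of these markers had a group mean near 0, and their part in the values of Elavl2, Elavl3 and Elavl4 was not tested.

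In the tristetraprolin family, Zfp36, which encodes tristetraprolin itself, had the widest spread of the 10 genes. Its order over the 8 groups ran from NIC CA3 polysome RNA, with a mean intensity of 20.6 ± 4.3 (SD, n = 3), and NIC CA1 polysome RNA (27.2 ± 7.7 (SD, n = 3)) through NIC CA3 and CA1 total RNA (45.3 ± 7.9 (SD, n = 3) and 50.1 ± 3.3 (SD, n = 3)) to the 8R groups. These were at 58.2 ± 27 (SD, n = 4) in CA3 polysome, 67.3 ± 36 (SD, n = 3) in CA1 polysome, 77.7 ± 38 (SD, n = 4) in CA3 total and 86.2 ± 43 (SD, n = 4) in CA1 total RNA. Neighbours in this order overlapped in their arrays, except that both NIC total RNA groups lay above the NIC polysome groups. The 3 NIC CA3 polysome arrays and 1 of the NIC CA1 polysome arrays were below 5.39 on the log2(intensity + 16) scale, the filter applied to each gene's mean.

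In CA3 polysome RNA the Zfp36 arrays were at 23.3, 22.9 and 15.7 in NIC and 57.5, 39.3, 39.6 and 96.5 in 8R. All 8R arrays were above all NIC arrays, and the rise was 1.95-fold (0.96 ± 0.27 SE log2, limma adjusted p = 0.0488). In CA1 polysome RNA the values 31.4, 18.3 and 32 in NIC and 41.6, 52.3 and 108 in 8R did not overlap either. There the difference of 0.88 ± 0.29 missed the threshold (adjusted p = 0.0536), but it was called with the pool as a block (0.82, adjusted p = 0.0179) and without the 8R arrays of pool 4 (0.55, adjusted p = 0.0243). It was also called with array weights (0.0287), with an offset of 1 in place of 16 (1.20, 0.0364), and without 8R CA1 polysome replicate 1 or 2 (0.0414 and 0.0385). Only these 6 of 14 other fits called it, and the limma adjusted p ran from 0.0179 to 0.341 over the 14. Leaving out only 8R CA1 polysome replicate 3, the pool 4 array of this comparison, did not call it. In total RNA Zfp36 was not called: CA1 was at 53.2, 50.3 and 46.7 in NIC and 78.4, 52.9, 64.8 and 149 in 8R (0.55 ± 0.27, adjusted p = 0.137), and CA3 at 47.5, 51.8 and 36.5 and 65.7, 58.7, 51.8 and 135 (0.54 ± 0.27, adjusted p = 0.179). In CA3 total RNA the highest NIC and the lowest 8R array were equal to 3 digits, and in CA1 total RNA they overlapped. Array weights called both total RNA differences (0.0353 and 0.0432), and a fit of the groups alone that in CA1 (0.0417). The call in CA3 polysome RNA was lost after quantile normalization (0.92, adjusted p = 0.0984) and with no filter on dim genes (0.0503), without NIC CA3 polysome replicate 1, 2 or 3 (0.0984, 0.106 and 0.207) and without 8R CA3 polysome replicate 1 or 4 (0.0806 and 0.166).

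Zfp36l1, a relative of tristetraprolin that also destabilises transcripts, was called higher in CA1 polysome RNA. The arrays were at 162, 147 and 206 in NIC and 249, 233 and 301 in 8R, without overlap, a 1.48-fold rise (0.57 ± 0.15 SE log2, limma adjusted p = 0.0179). In CA3 polysome RNA the 8R arrays, at 148, 188, 153 and 226, were all above the NIC arrays at 136, 141 and 109, but the difference of 0.42 ± 0.14 did not pass (adjusted p = 0.0964). Total RNA gave values of 167, 215 and 173 in NIC and 187, 169, 163 and 212 in 8R in CA1, and of 177, 136 and 172 and 147, 191, 142 and 172 in CA3. Both pairs overlapped, with differences of -0.01 (95% interval -0.30 to 0.27) and 0.01 (-0.28 to 0.30). The CA1 polysome call was lost without NIC CA1 polysome replicate 1 or 2 (adjusted p = 0.0701 and 0.106), without 8R CA1 polysome replicate 3, which is pool 4 (0.123), and in a fit of those groups alone (0.0504).

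Zfp36l2, the third family member on the array, was not called in any comparison of 8R with NIC. In CA1 polysome RNA its arrays were at 165, 131 and 152 in NIC and 169, 173 and 252 in 8R, which did not overlap (0.36 ± 0.15 SE, limma adjusted p = 0.147). The CA1 total RNA arrays were at 197, 195 and 186 and 169, 144, 151 and 227 (-0.16 ± 0.14, adjusted p = 0.417). There 3 of the 8R arrays were below every NIC array and pool 4 was above them all, and without the pool 4 arrays the gene was called lower (-0.29, adjusted p = 0.0157). CA3 total RNA showed the same arrangement, with 169, 168 and 157 in NIC and 130.1, 144, 119 and 181 in 8R (-0.19 ± 0.14, adjusted p = 0.388), and without pool 4 -0.30 (adjusted p = 0.0144). Those fits dropped pool 4 from all 8R groups. Leaving out only the pool 4 array of the compared group called the gene in neither region. CA3 polysome RNA was at 150.2, 125 and 122 and 111, 134, 120.4 and 148, which overlapped. Zfp36l2 alone of the 10 genes had 2 probe sets. In CA3 polysome RNA they moved in opposite directions, from a mean of 132 ± 15 (SD, n = 3) to 128 ± 16 (SD, n = 4) for the brighter and from 86.8 ± 18 (SD, n = 3) to 101 ± 12 (SD, n = 4) for the other. In total RNA the other went from 99.9 ± 17 (SD, n = 3) to 99.3 ± 21 (SD, n = 4) in CA1. In CA3 total RNA it went from 116 ± 22 (SD, n = 3) to 108 ± 17 (SD, n = 4).

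Hnrnpd, the AUF1 gene, rose 1.47-fold in CA1 total RNA, the largest called change among the 10 genes in total RNA. Its NIC arrays were at 309, 264 and 317 and its 8R arrays at 457, 438, 481 and 398, without overlap (0.55 ± 0.11 SE log2, limma adjusted p = 0.00023). The CA3 total RNA values were 315, 324 and 344 and 447, 459, 465 and 362, again without overlap (0.38 ± 0.11, adjusted p = 0.0142). Polysome RNA overlapped in both regions. CA1 was at 583, 488 and 513 in NIC and 577, 519.7 and 470.5 in 8R, and CA3 at 473, 474 and 453 and 460.0, 551, 490.1 and 401. The polysome differences were -0.02 (95% interval -0.25 to 0.22) and 0.02 (-0.20 to 0.23). The CA3 total RNA call was lost without NIC CA3 total replicate 1 or 2 (adjusted p = 0.0599 and 0.0602).

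Khsrp, whose protein promotes decay of AU-rich transcripts and takes part in microRNA maturation, was the only 1 of the 10 genes called in both fractions of a region. It was at 256, 265 and 280.0 in NIC and 359, 355, 325 and 339 in 8R in CA1 total RNA (0.35 ± 0.09 SE log2, limma adjusted p = 0.0031). In CA1 polysome RNA it was at 487, 456 and 458 and 582, 588 and 588 (0.32 ± 0.09, adjusted p = 0.0286). The 3 polysome 8R arrays were between 582 and 588, above every NIC array. In CA3 total RNA the values were 257, 249 and 226 and 333, 321, 295 and 279 (0.31 ± 0.09, adjusted p = 0.0147), and in CA3 polysome RNA 386, 388 and 337 and 433, 479.9, 397 and 418 (0.21 ± 0.09, adjusted p = 0.172). In all 4 comparisons every 8R array lay above every NIC array, although the last did not pass the test. The CA1 polysome call was lost without NIC CA1 polysome replicate 1, 2 or 3 (adjusted p = 0.0515, 0.0987 and 0.0918), without 8R CA1 polysome replicate 1 or 3 (0.0769 and 0.093) and in a fit of those groups alone (0.135). The CA3 total RNA call was lost after quantile normalization (0.16, adjusted p = 0.193), in a fit of those groups alone (0.0629) and without NIC replicate 3 or 8R replicate 1 of CA3 total RNA (0.0923 and 0.0625).

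Tia1, the translational repressor of stress granules, was not called in any comparison of 8R with NIC. In CA1 polysome RNA its arrays were at 103, 111 and 106 in NIC and 76.8, 111 and 49.7 in 8R, where replicate 2 was as high as the controls and the other 8R arrays were lower (-0.41 ± 0.16 SE log2, limma adjusted p = 0.116). It was called lower with array weights (-0.37, 0.0311) and without 8R CA1 polysome replicate 2 (-0.65, 0.00582). Tia1 in CA3 total RNA was at 45.2, 43.5 and 47.7 in NIC and 62.8, 61.7, 60.8 and 41.6 in 8R. There 3 of the 8R arrays were above all NIC arrays and pool 4 was below them (0.23 ± 0.15, adjusted p = 0.332), and without pool 4 in all 8R groups the gene was called higher (0.34, adjusted p = 0.0104). Leaving out only 8R CA3 total replicate 4 did not call it. CA1 total RNA was at 63.1, 55.9 and 61.8 and 73.4, 63.1, 83.7 and 60.5, and CA3 polysome RNA at 58.8, 64.6 and 58.4 and 64.4, 62.4, 65 and 39.9, with overlap in both.

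**Figure D2:**
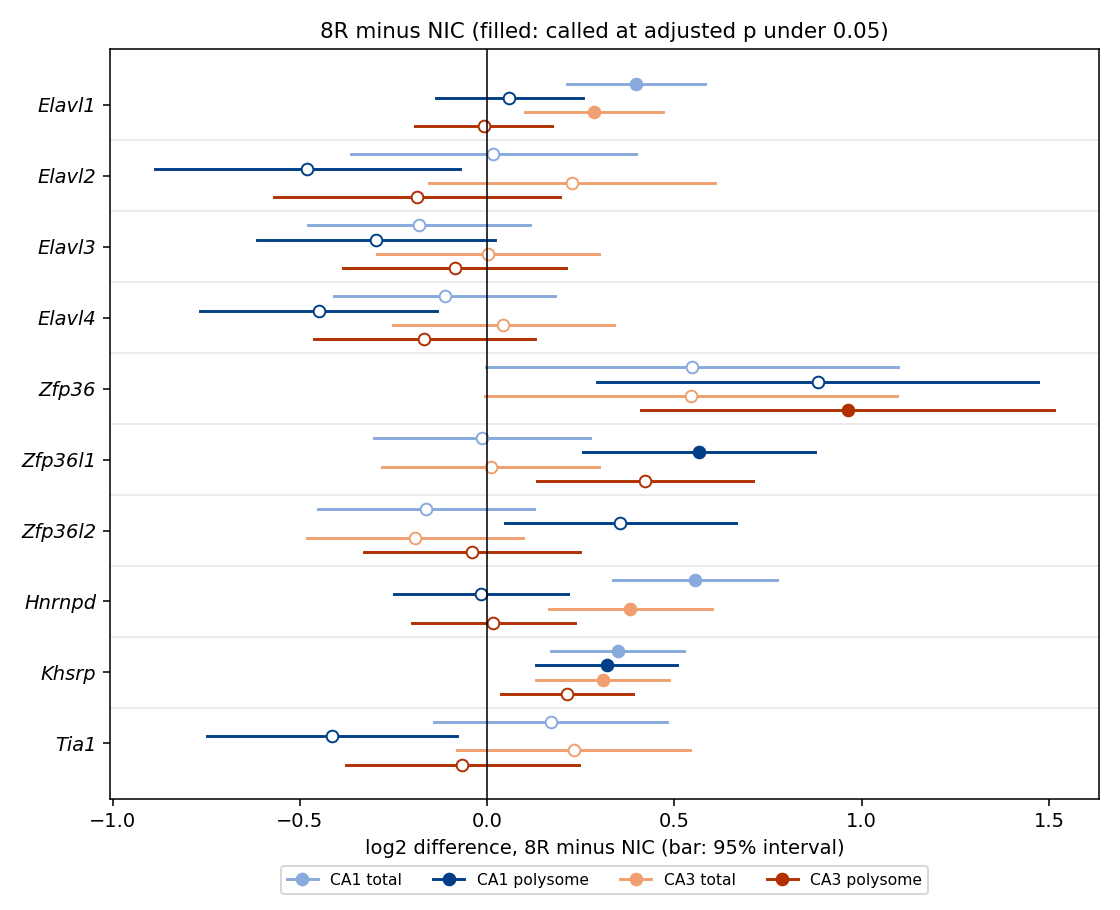
Log2 difference of 8R from NIC (x axis) for each of the 10 genes in the 4 combinations of region and fraction, with 95% intervals and filled points where the adjusted p was under 0.05. Elavl1 and Hnrnpd were above 0 in total RNA and near 0 in polysome RNA, and the estimates of Zfp36 and Zfp36l1 were higher in polysome than in total RNA, a difference that was called for neither gene in the fit shown. With the pool as a block that of Zfp36l1 in CA1 was called.

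Whether the regions responded differently was tested as the 8R change in CA1 minus that in CA3. None of the 10 genes was called in total RNA (lowest limma adjusted p = 1) or polysome RNA (lowest 0.912), and 0 were at an unadjusted p under 0.05 in either. Over all tested genes 5.21% and 5.55% were at that unadjusted p, and the shares called were 0.0236% and 0.0157%, so that these comparisons called next to nothing on this array set. The widest differences were those of Elavl2 in total RNA (-0.21 ± 0.26 SE log2, 95% interval -0.75 to 0.33) and Zfp36l2 in polysome RNA (0.40 ± 0.21, -0.03 to 0.82). For Khsrp the intervals were -0.21 to 0.29 in total RNA and -0.15 to 0.36 in polysome RNA, and for Zfp36 they were -0.78 to 0.78 and -0.89 to 0.73.

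In control tissue the ELAV genes, Hnrnpd, Khsrp and Tia1 had every polysome array above every total RNA array of the region, and no gene of the tristetraprolin family did. In NIC CA1, 6 of the 10 genes were called higher in polysome RNA and none lower: Hnrnpd, Khsrp, Elavl2, Elavl4, Tia1 and Elavl1. Of all tested genes 44% were called there, 39.4% higher and 4.62% lower. In NIC CA3, 4 were called higher (Khsrp, Elavl4, Hnrnpd and Elavl1) and 1 lower (Zfp36), beside 38.3% of all genes called, 21.5% higher and 16.9% lower. The arrays of the fractions did not overlap for 9 of the 10 genes in each region, as for 57.5% of all genes in CA1 and 56.8% in CA3. The median polysome minus total difference of the 10 genes was 0.63 log2 in CA1 and 0.35 in CA3, beside 0.20 and -0.00 over all genes. Every array was made from an equal mass of RNA, so these values are relative to the other transcripts of a fraction. Quantile normalization moved the median of all genes in CA1 from 0.20 to 0.04, and the differences are to be read against that shift.

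Hnrnpd had the largest difference in NIC CA1, 0.80 ± 0.11 SE log2 (limma adjusted p = 2.54e-06), from a mean of 297 ± 28 (SD, n = 3) in total RNA to 528 ± 49 (SD, n = 3) in polysome RNA. In NIC CA3 it was 0.49 ± 0.11 (adjusted p = 0.00132). Khsrp was 1.71-fold higher in CA1 polysome RNA (0.77 ± 0.09, adjusted p = 2.62e-07) and 1.48-fold in CA3 (adjusted p = 3.3e-05). Among ELAV genes, Elavl4 was at 0.70 in CA1 (adjusted p = 0.000526) and 0.56 in CA3 (0.00526), and Elavl1 at 0.58 (1.82e-05) and 0.39 (0.00235). Elavl2 was at 0.71 in CA1 (0.00441), a call lost after quantile normalization (0.37, 0.0992). Its 0.48 in CA3 (0.0579) was called with the pool as a block (0.00449). Elavl3, at 0.36 in CA1 (0.0581), was called with the block too (0.00563), and at 0.21 in CA3 (0.281) it was not. Tia1 was at 0.68 in CA1 (0.00106) and 0.32 in CA3 (0.123, with the block 0.0335).

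For the tristetraprolin family the estimates were below 0, and 1 of the 6 tests, Zfp36 in CA3, was called. Zfp36 was 1.67-fold lower in NIC CA3 polysome RNA than in total RNA (-0.74 ± 0.29 SE log2, limma adjusted p = 0.0423). In NIC CA1 it was at -0.63 ± 0.29 (adjusted p = 0.0777), which the block called (0.00785). In both regions every polysome array was below every total RNA array. The CA3 call of Zfp36 was lost after quantile normalization (-0.62, 0.115), with no filter on dim genes (0.0528), without NIC CA3 polysome replicate 1, 2 or 3 (0.063, 0.0677 and 0.137) and without NIC CA3 total replicate 1 or 2 (0.0982 and 0.122). Zfp36l2 was at -0.34 in CA1 (0.0684, with the block 0.0118) and -0.29 in CA3 (0.128, with the block 0.0334), and Zfp36l1 at -0.10 (0.619) and -0.30 (0.118). Quantile normalization also called Zfp36l2 lower in CA1 polysome RNA (-0.64, 0.00522). The second probe set of Zfp36l2 went the other way in NIC CA1, from a mean of 99.9 ± 17 (SD, n = 3) in total RNA to 115 ± 12 (SD, n = 3) in polysome RNA, and the same way in NIC CA3, from 116 ± 22 to 86.8 ± 18 (SD, n = 3 each).

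**Figure D3:**
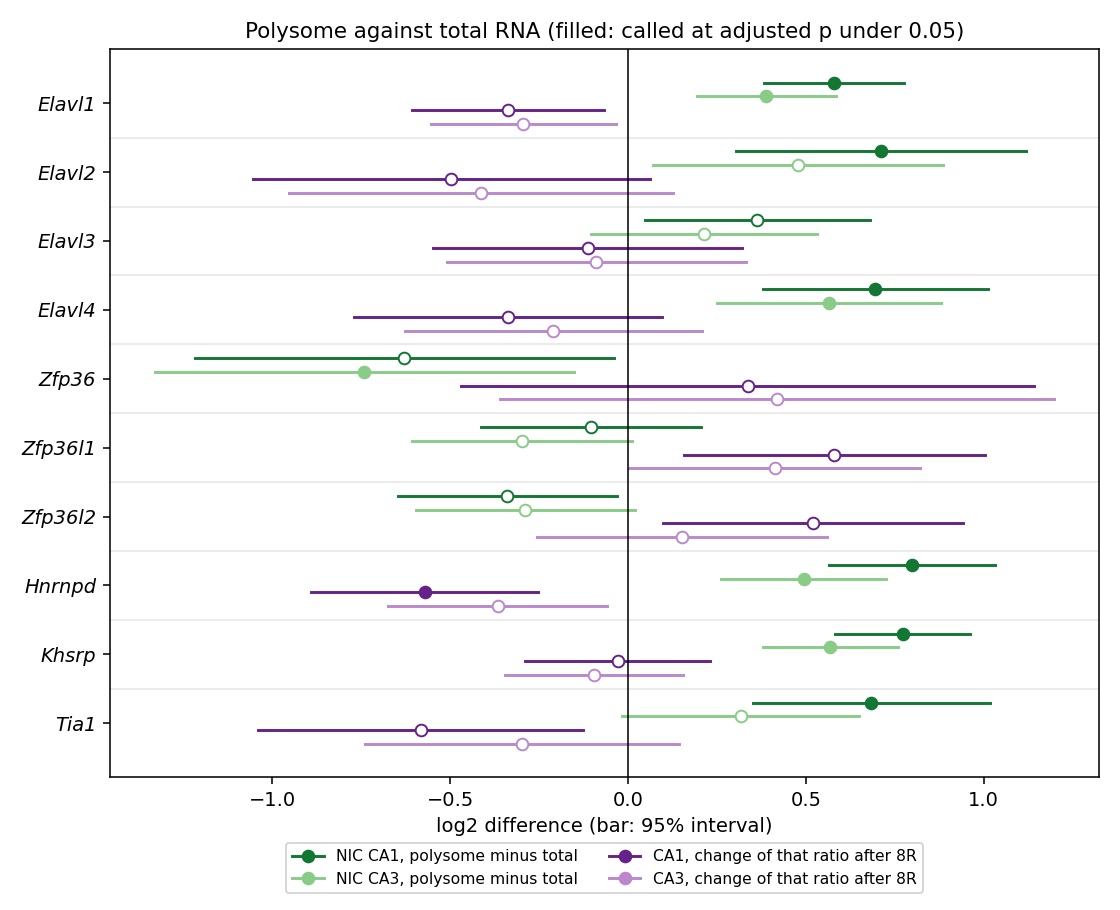
Log2 difference of polysome from total RNA in NIC (green) and the change of that ratio from NIC to 8R (purple), for each of the 10 genes with 95% intervals, filled where the adjusted p was under 0.05. In NIC the ELAV genes, Hnrnpd, Khsrp and Tia1 lie above 0 and the tristetraprolin family below it, and the estimated change of each gene lies on the other side of 0 from its NIC value, a comparison in which both use the same NIC arrays.

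The polysome to total ratio after ischemia was tested as the polysome change minus the total change. In CA1 1 of the 10 genes was called, Hnrnpd, whose ratio fell (-0.57 ± 0.16 SE log2, limma adjusted p = 0.0355). Over all tested genes 3.82% were called, 3.41% lower and 0.408% higher. In the values given above, total RNA of this gene was higher in 8R and polysome RNA overlapped with NIC. The Hnrnpd call was lost after quantile normalization (-0.37, 0.0561), in a fit of the CA1 groups alone (0.0541), and without NIC CA1 polysome replicate 1 or 3 (0.106 and 0.0642), NIC CA1 total replicate 2 (0.138), 8R CA1 polysome replicate 3 (0.118) or 8R CA1 total replicate 1 or 3 (0.0788 and 0.061). Other estimates in CA1 were -0.58 for Tia1 (adjusted p = 0.122), 0.58 for Zfp36l1 (0.101), 0.52 for Zfp36l2 (0.133) and -0.50 for Elavl2 (0.273). With the pool as a block, 4 genes were called: Hnrnpd again, Tia1 lower (-0.58, 0.0218), and Zfp36l1 and Zfp36l2 higher (0.59, 0.0224 and 0.51, 0.0265). The block called 14.1% of all genes for this ratio. The Zfp36l2 values are those of its brighter probe set. The other went from a mean of 99.9 ± 17 (SD, n = 3) to 99.3 ± 21 (SD, n = 4) in CA1 total RNA. In CA1 polysome RNA it went from 115 ± 12 to 127 ± 21 (SD, n = 3 each).

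In CA3 limma called 0 of the 10 genes for the ratio and 0.165% of all genes (0.055% higher, 0.11% lower), and 3 of the 10 were at an unadjusted p under 0.05, as were 20.6% of all genes. Hnrnpd was at -0.37 ± 0.15 SE log2 (adjusted p = 0.18), and was called lower with the block (adjusted p = 0.0475) and without the pool 4 arrays (0.0442). Leaving out the CA3 total or the CA3 polysome array of pool 4 alone did not call it. Elavl1 was at -0.29 (0.194) and Zfp36l1 at 0.41 (0.239). Khsrp had ratio changes of -0.03 in CA1 (95% interval -0.29 to 0.23) and -0.09 in CA3 (-0.35 to 0.16), the smallest in size of the 10 in CA1. The median ratio change of the 10 genes was -0.23 log2 in CA1 and -0.15 in CA3, beside -0.06 and -0.07 over all genes. Whether the ratio change differed between the regions was not tested.

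Between the regions in controls, none of the 10 genes was called in total RNA, where 3.46% of all genes were (2.4% higher in CA1, 1.06% lower), and 0 of the 10 were at an unadjusted p under 0.05, beside 13% of all genes. Elavl2 was lower in every CA1 array than in any CA3 array (-0.37 ± 0.20 SE log2, limma adjusted p = 0.448) and was called in a fit of those groups alone (0.00604) and without the 8R pool 4 arrays (0.00388). In polysome RNA 2 genes were called higher in CA1, Tia1 (0.68 ± 0.16, adjusted p = 0.00361) and Khsrp (0.32 ± 0.09, 0.0114), and Zfp36l1 was called with the pool as a block (0.37, 0.0204; without it 0.0634). In that comparison 28.4% of all genes were called, 27.6% higher and 0.73% lower, and the median over all genes was 0.23 log2, and 0.00 after quantile normalization. On that scale both calls were lost (Tia1 0.41, adjusted p = 0.21; Khsrp 0.13, 0.494). The Khsrp call was lost also without NIC CA1 polysome replicate 1 (0.0523) or NIC CA3 polysome replicate 3 (0.0752). The arrays of the regions did not overlap for 4 of the 10 genes in total RNA and 6 in polysome RNA, beside 26.1% and 54.9% of all genes.

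In the arrays of 8R pool 4 the tristetraprolin family was higher than the mean of the other 8R pools, while the ELAV genes did not all move the same way. Against that mean Zfp36 was higher in pool 4 by 0.89 to 1.03 log2 in the 4 region and fraction groups, Zfp36l2 by 0.26 to 0.52 and Zfp36l1 by 0.10 to 0.44. For Zfp36l1 in 8R CA3 total RNA, pool 2 (intensity 191) was above pool 4 (172). Elavl2 was at -0.78 to -0.58, Elavl3 at -0.55 to -0.36, Tia1 at -0.73 to -0.22 and Hnrnpd at -0.32 to -0.19. Elavl1, Elavl4 and Khsrp went both ways, from -0.28 to 0.08, from -0.47 to 0.06 and from -0.17 to 0.01. Pan-neuronal markers had pool 4 medians of 0.05 in CA1 total, -0.01 in CA1 polysome, -0.24 in CA3 total and -0.07 in CA3 polysome RNA, and microglial markers 0.13, 0.28, 0.10 and 0.34. In the same order astrocyte markers were at -0.07, 0.27, -0.33 and -0.11, and dentate granule markers at 0.21, 0.13, -0.54 and -0.47. CA1 pyramidal markers were at -0.17, -0.35, -0.21 and -0.19. Pool 4 is 1 pool of 5 rats in 4 related preparations, so these are 4 views of 1 sample, and no test was made. Without its arrays 4 of the 10 genes were called in CA1 total RNA (the 3 named and Zfp36l2, lower) and 6 in CA3 total RNA (the 3 named, with Elavl2 and Tia1 higher and Zfp36l2 lower). In that fit 37.3% and 34.2% of all tested genes were called in these comparisons. Leaving out only the pool 4 array of the compared group called just the 3 named in each. The fit without all pool 4 arrays was listed as an alternative because pool 4 was already known to lie apart.

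**Figure D4:**
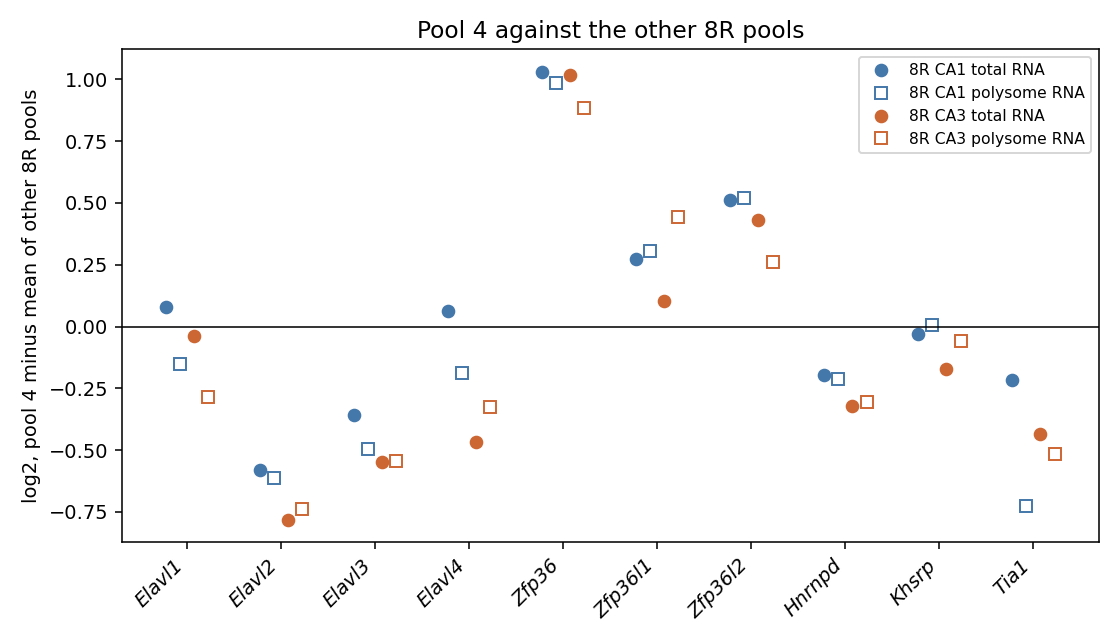
Log2 intensity of the 8R pool 4 array minus the mean of the other 8R pools (y axis) for each of the 10 genes, with a symbol for each region and fraction. The tristetraprolin family lies above 0, with Zfp36 at 0.89 to 1.03, and Elavl2, Elavl3, Hnrnpd and Tia1 lie below it.

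The profiles of the genes over the 8 group means were compared by Pearson's correlation of log2 intensity, as a description, since points of different genes come from the same arrays. Elavl1 and Hnrnpd followed each other most closely (r = 0.979), and Elavl1 and Khsrp were at 0.937. Elavl4 ran with Elavl3 (0.942) and Elavl2 (0.917). Zfp36 ran against Elavl3 (-0.82), and Zfp36l2 against Elavl2 (-0.87). Among all tested genes the profiles most like that of Zfp36 were those of the metallothionein gene Mt2A (0.984), Spred2, an inhibitor of MAP kinase signalling (0.971), and Stk40 (0.964), and 42 of 12735 genes were above 0.9. For Elavl4 they were the kinesin gene Kif3c (0.993), Rnf112 (0.992) and the pyruvate dehydrogenase kinase gene Pdk3 (0.990), with 377 above 0.9.

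The rest of the pathway was taken as 7 lists chosen with earlier results of these data known. Over all tested genes 20.1% were called higher in CA1 total, 4.86% in CA1 polysome, 14.2% in CA3 total and 2.38% in CA3 polysome RNA. Of other proteins that bind AU-rich or U-rich elements, 16 of 20 were tested, and in CA1 total RNA 12 were called higher and 0 lower in limma's test, with a median of 0.51 log2 beside 0.04 over all genes. They included Fxr1 (0.89, adjusted p = 1.45e-06), a fragile X relative, the splicing and stability regulator gene Ptbp1 (0.87, 0.000192), Hnrnpa2b1 (0.80, 1.43e-05) and the cold shock domain gene Ybx1 (0.78, 8.41e-08). In CA3 total RNA 9 were higher and 0 lower (median 0.32, and 5 higher after quantile normalization), with Ptbp1 at 0.81, Fxr1 at 0.68, Ybx1 at 0.54 and Hnrnpa2b1 at 0.51. In polysome RNA 2 were higher in each region, Ptbp1 (0.91) and the poly(C) binding protein gene Pcbp1 (0.33) in CA1 and Ptbp1 (0.61) and Ybx1 (0.38) in CA3, with medians of 0.05 and 0.12. As for Hnrnpd, the polysome to total ratio in CA1 was called lower after ischemia for 5 of the 16 (median -0.43), beside 3.41% of all genes.

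The decay machinery was taken as 3 of these lists. Over all tested genes 20.1% were called higher in CA1 total, 4.86% in CA1 polysome, 14.2% in CA3 total and 2.38% in CA3 polysome RNA. The shares called lower were 6.15%, 3.45%, 1.33% and 0.275%. Of 16 tested deadenylation genes 3 were higher in CA1 total RNA, close to the share over all genes: Cnot9 (0.56), Cnot2 (0.40) and Cnot6l (0.36). In CA1 polysome RNA the deadenylase gene Cnot7 was lower (-0.56) and Cnot6l higher (0.44), and in CA3 total RNA Cnot9 was higher (0.32). Of 11 decapping and 5′ to 3′ decay genes, the helicase gene Ddx6 rose in both total RNA comparisons (0.49 and 0.50), Lsm7 was lower in CA3 total RNA (-0.43), and the decapping activator gene Dcp1a rose in CA1 polysome RNA (0.40). Of 11 exosome and SKI genes 4 rose in CA1 total RNA, led by Exosc3 (0.82) and the nuclease gene Dis3 (0.64), with Dis3 also higher in CA1 polysome RNA (0.43), and 2 rose in CA3 total RNA. Without the 8R arrays of pool 4, 7 deadenylation and 7 exosome genes were called higher in CA1 total RNA and 5 of each in CA3 total RNA, in a fit that called 37.3% and 34.2% of all genes. Among 16 kinases, cofactors and transport partners, 7 were higher and 1 lower in CA1 total RNA and 5 higher in CA3 total RNA. Tnpo1, the import receptor known to carry several RNA-binding proteins, rose in all 4 comparisons (1.08 and 0.69 in CA1 total and polysome, 0.76 and 0.43 in CA3), the last of which quantile normalization did not call. Mapkapk2, the kinase known to phosphorylate tristetraprolin, rose in CA1 polysome RNA (0.71, adjusted p = 0.00134).

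Transcripts that are known to carry AU-rich elements were called higher for 11 of 30 in CA1 total RNA with 1 lower, 8 in CA1 polysome RNA, 10 in CA3 total RNA and 5 in CA3 polysome RNA (2 after quantile normalization), with medians of 0.22, 0.19, 0.14 and 0.22 log2. Over all tested genes 20.1%, 4.86%, 14.2% and 2.38% were called higher in these comparisons. The cell cycle inhibitor gene Cdkn1a (1.10, 1.29, 1.25 and 1.35 in that order), the inducible cyclooxygenase gene Ptgs2 (2.39, 2.32, 1.55 and 1.27), the stress factor gene Atf3 and Gadd45b were called higher in all 4. Of 11 tested transcripts known as targets of neuronal ELAV proteins, 1 was higher in each comparison, Cdkn1a, which is in both lists. The lower ones were Marcks, a membrane and actin linker gene, in total RNA of both regions (-0.63 and -0.47) and the growth cone gene Gap43 in CA1 polysome RNA (-0.85). Medians of that list were 0.04, -0.02, 0.11 and -0.01, and quantile normalization called 2 higher and 5 lower in CA1 total RNA.

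Some markers of microglia and astrocytes were called higher in 8R. The shares of all tested genes called higher were 20.1% in CA1 total, 4.86% in CA1 polysome, 14.2% in CA3 total and 2.38% in CA3 polysome RNA. Microglial markers were called higher for 3 of 7 in CA1 polysome RNA and 2 of 7 in CA3 polysome RNA, the groups where Zfp36l1 and Zfp36 were called. Their summed intensity lay between 366 and 388 in NIC CA1 polysome RNA and between 503 and 653 in 8R, and in CA3 polysome RNA between 331 and 339 and between 397 and 517. In total RNA, where neither gene was called, the microglial counts were 3 in CA1 and 2 in CA3. The microglial sums rose without overlap there too. They lay between 355 and 383 in NIC and 442 and 509 in 8R in CA1 total RNA, and between 318 and 364 and 421 and 451 in CA3 total RNA. The microglial marker Itgam was below the filter on dim genes and was not tested. Astrocyte markers were called higher for 5 of 6 in CA1 total, 2 in CA1 polysome, 2 in CA3 total and 1 in CA3 polysome RNA. Oligodendrocyte markers were called for 1 of 7 higher and 1 lower in CA1 total RNA (median -0.25), 1 lower in CA1 polysome RNA (-0.04), 2 higher in CA3 total RNA (0.21) and 1 higher in CA3 polysome RNA (0.19). The part of these cells in the values of Zfp36, Zfp36l1, Elavl1, Hnrnpd and Khsrp was not tested.

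**Figure D5:**
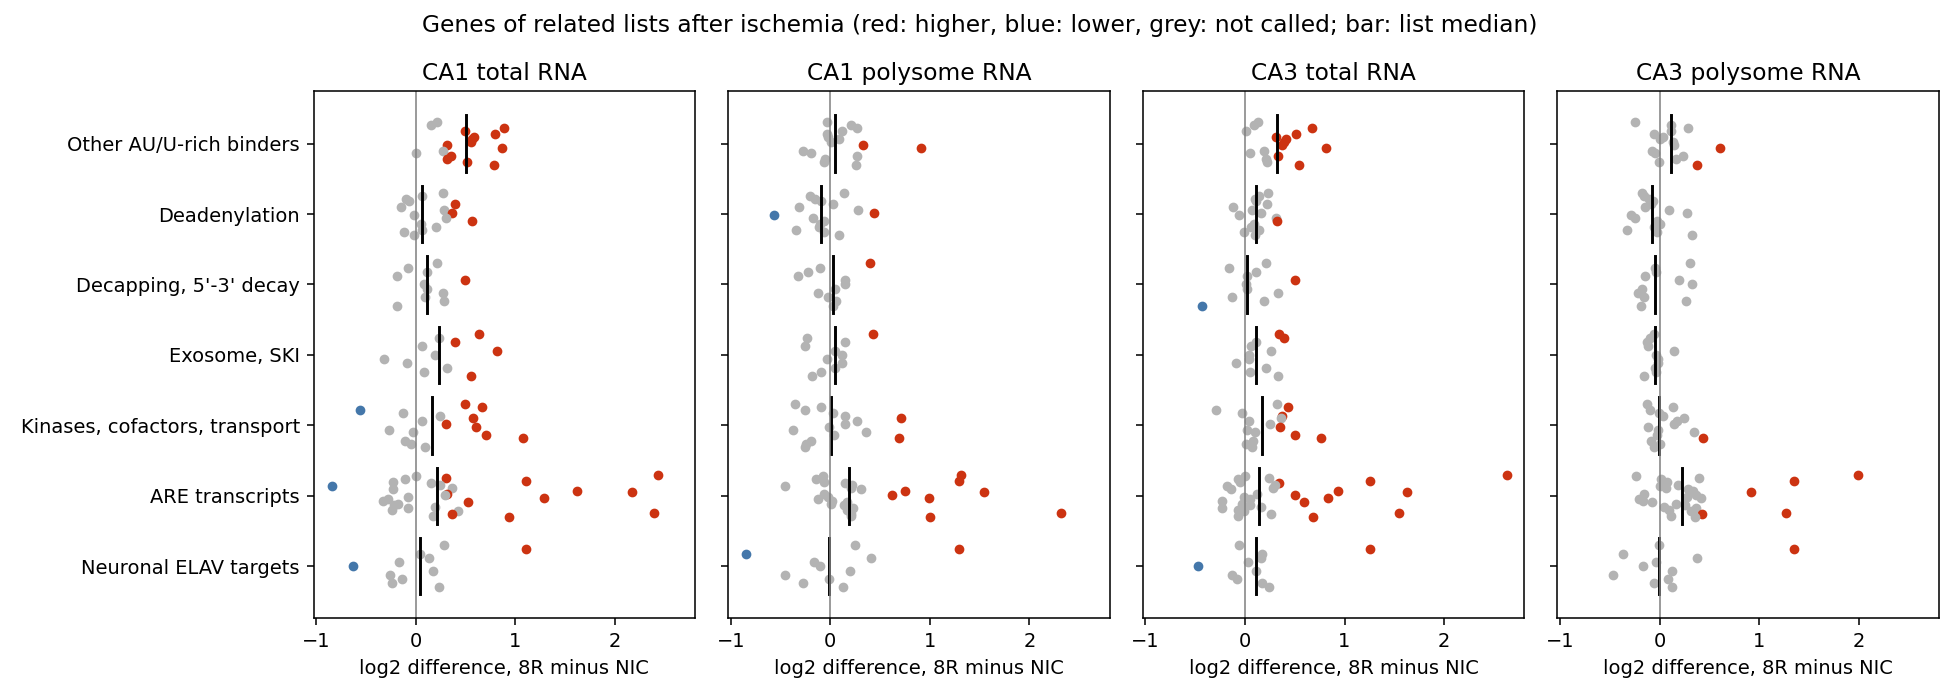
Log2 difference of 8R from NIC (x axis) for each tested gene of the 7 related lists, 1 panel per region and fraction, red where called higher, blue where called lower, grey otherwise, with a bar at the list median. ARE transcripts are those known to carry AU-rich elements. The other AU-rich or U-rich binding protein genes have medians of 0.51 and 0.32 in CA1 and CA3 total RNA and of 0.05 and 0.12 in polysome RNA.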

How the data were processed

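RNA was measured on 27 Affymetrix Rat Gene 2.0 arrays, with biotin-labelled cRNA made from 1 ug of RNA per array. The deposited values are linear intensities per probe set, which the authors made with PLIER in Affymetrix Expression Console, per the submitters' processing notes. Sources used here give neither versions nor any scaling between arrays. Groups came from the sample labels.

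Of 36685 probe sets, 18511 had a single symbol in the platform annotation, 575 had several and 17599 none. The brightest probe set of each gene was taken, as 291 genes had several. Genes with a mean below log2 5.39, the 30th percentile, were left out, which kept 12736 of 18166. The 8 group means were fitted to log2(intensity + 16) over all arrays with limma 3.58.1 in R 4.3.3 (lmFit, eBayes with an intensity trend, two-sided tests, 19 residual and 10.1 prior degrees of freedom), with Benjamini-Hochberg adjustment over all tested genes. The scripts were tested on simulated data. The number of arrays limits the precision.

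The members and lists were chosen with earlier results of these data known. All 10 members are named, and from each related list mainly the 4 called genes with the largest change in a comparison. Further genes were chosen after their values were seen. Related lists and cell type markers are described by counts, medians and named genes, with no set test.

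The design states that total and polysome RNA of a pool came from 1 supernatant, so pools pair the fractions, and array numbers were read as pool numbers, with replicates 1, 2 and 3 of 8R CA1 polysome RNA being pools 1, 3 and 4. In 8R the deviations of arrays from 1 pool were correlated across genes in 7 of 7 pairs of fractions (r = 0.28 to 0.77) and 7 of 7 pairs of regions (0.12 to 0.78). For arrays of different 8R pools r ran from -0.62 to 0.47 between fractions and from -0.69 to 0.48 between regions. It exceeded 0.1 in 5 of 21 and 6 of 21 of those pairs. In NIC the values for arrays of 1 pool exceeded 0.1 in 1 of 6 and 0 of 6 pairs. The pool within its condition was tried as a random block (consensus correlation 0.27). The other alternatives were an offset of 1, no filter, quantile normalization, the mean of a gene's probe sets, a fit of the compared groups alone, array weights, each array left out and 8R pool 4 left out. Promoter windows and motif counts came from the RefSeq table.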

Additional observations from a re-analysis of the deposited data

Results flagged for a closer look

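Dixon's test compares the gap between 1 array and its nearest neighbour with the whole range of the group. It was applied to the 10 genes in the 3 groups of 4 arrays, which gave 30 groups, and 6 of them had an array farther from the others than its critical value for 4 arrays allows at 95%. Chance flags about 1 in 20 groups, and 5 of the 6 arrays belong to 8R pool 4, so they are not independent of each other.

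Elavl2 was lowest in pool 4 in 8R CA3 total RNA, at an intensity of 181 with the others at 310.3 to 335 (ratio of gap to range 0.873), and in 8R CA3 polysome RNA, at 194 with the others at 326 to 345 (0.903). Tia1 was lowest in pool 4 in the same groups, at 41.6 with the others at 60.8 to 62.8 in total RNA (0.918) and at 39.9 with the others at 62.4 to 65.0 in polysome RNA (0.911). Hnrnpd was lowest in pool 4 in 8R CA3 total RNA, at 362 with the others at 447 to 465 (0.846). The exception was Elavl1 in 8R CA1 total RNA, where replicate 2 was lowest at 241 with the others at 271 to 277 (0.838). The causes were not tested.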

How the results depend on the processing

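Each of the 12 comparisons was refitted for the 10 genes under 8 alternatives and without each compared array in turn. Of 2010 such values for single genes, 0 reversed a called direction, 1884 stayed on their side of the threshold, 50 lost the call and 76 gained one. In CA1 total RNA the 3 called genes, Elavl1, Hnrnpd and Khsrp, were called in all of these fits, and in NIC CA1 the 6 genes called higher in polysome RNA were called in all but the quantile fit, which lost Elavl2. The counts of called genes that moved by more than 1.5 times follow, and the cause was not tested. For these fits the share of all genes called, which moved as well, follows each count in parentheses. Quantile normalization took the count from 3 to 1 in CA3 total RNA (12.6%) and from 1 to 0 in CA3 polysome RNA (1.35%). For the ratio in CA1 it went from 1 to 0 (3.78%), and for NIC CA1 against CA3 in polysome RNA from 2 to 0 (4.69%). Before quantile normalization these shares were 15.5%, 2.65%, 3.82% and 28.4%. Without the filter on dim genes, which adjusts over more genes, the count in CA3 polysome RNA went from 1 to 0 (2.6%). Array weights gave 5 in place of 2 in CA1 polysome RNA (17.2%), 7 in place of 3 in CA3 total RNA (37.3%), 10 in place of 5 for the fractions in NIC CA3 (52.7%), 2 in place of 1 for the ratio in CA1 (12.1%), and 2 in place of 0 both for the ratio in CA3 (17.3%) and for NIC CA1 against CA3 in total RNA (12%). Fits of the compared groups alone gave 0 in CA1 polysome RNA (3.51%), 1 in CA3 total RNA (13.6%), 10 for the fractions in NIC CA3 (50%), 0 for the ratio in CA1 (3.09%) and 1 for NIC CA1 against CA3 in total RNA (9.84%). Without the 8R arrays of pool 4 the counts were 6 in CA3 total RNA (34.2%), 9 for the fractions in NIC CA3 (48.4%), 3 for the ratio in CA1 (8.49%), 2 for the ratio in CA3 (9.85%) and 1 for NIC CA1 against CA3 in total RNA (8.06%). With the replicate block, which pairs the arrays of a pool, they were 8 for the fractions in NIC CA3 (48.7%), 4 for the ratio in CA1 (14.1%) and 1 for the ratio in CA3 (10.6%). The block ended no call of the 10 genes, and the calls it added are given with their genes. With 1 array left out the count ranged from 3 to 3 in CA1 total RNA and 0 to 5 in CA1 polysome RNA. In CA3 it ranged from 1 to 3 in total RNA and 0 to 1 in polysome RNA. All genes called ranged there from 2217 to 3403, 423 to 1788, 976 to 3013 and 89 to 366 of 12736. For the fractions in NIC CA1 and CA3 the counts were 6 to 6 and 4 to 5 (all genes 4681 to 5103 and 3819 to 4077). For the ratio in CA1 and CA3 they were 0 to 2 and 0 to 0 (all genes 31 to 975 and 3 to 1023). Both region differences in the 8R change gave 0 to 0 (all genes 1 to 7 in total and 0 to 3 in polysome RNA). NIC CA1 against CA3 gave 0 to 0 in total RNA (all genes 262 to 313) and 1 to 2 in polysome RNA (2081 to 2836).

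Leaving out 8R CA1 total replicate 4 called the ratio of Zfp36l2 in CA1 (0.65, limma adjusted p = 0.0469), and leaving out 8R CA1 polysome replicate 2 that of Tia1 (-0.82, 0.0173). The dimmest of the 10 genes in control polysome RNA, Zfp36, lay near the filter, so its folds there depend most on the offset. The scaling between arrays is unknown, and each pool was measured with 1 array per region and fraction, so that array error and pool differences cannot be told apart. No protein was measured.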
